A study of Mus musculus with 2 samples.

Results

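Strong, narrow TBP sites with no other site nearby were described across 2 ChIP-seq libraries from mouse embryonic stem cells. A site was a run of touching 200-bp tiles that each held at least 15 distinct reads of the first library and 6 of the second. A site entered this set if it was 1 to 3 tiles wide (at most 600 bp), if its top tile held at least 100 and 30 distinct reads, and if no other site lay within 5 kb. Of 12872 sites on chromosomes 1 to 19, 300 met these conditions, or 2.33%. They made up 300 of the 517 narrow sites of that height and 300 of the 8250 narrow sites standing alone. Chromosome 13 between 21 and 24 Mb was outside the rule. The sites were thus chosen by the distinct read counts of both libraries, by width and by distance, so heights and library ratios are given below as descriptions with no test.

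Both libraries came from V6.5 cells, an embryonic stem cell line from a C57BL/6-129 cross, and both used the Abcam antibody AB818 against TBP. They form 1 group with no treatment, and a library made without antibody was not analysed here. B2 (replicate 1, 36-base reads) came from cells grown for 2 passages away from the feeder fibroblasts, with a gel cut from 150 to 350 bp. B6 (replicate 2, 26-base reads) came from cells grown for 1 such passage, with a gel cut from 150 to 300 bp. Beyond the passage number, nothing in the labels says that the cultures were separate, so the spread between B2 and B6 may be in part technical. Passage number, gel cut, read length and depth all differ between the libraries and cannot be told apart in that spread. B2 held 15887305 distinct nuclear reads and B6 held 2856259, which gave a mean of 1.44 and 0.259 distinct reads per mapped tile.

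TBP, the TATA-binding protein, bends DNA at core promoters and nucleates the assembly of the transcription machinery. It serves all nuclear RNA polymerases: as part of TFIID at protein-coding promoters, of SL1 at ribosomal RNA genes, and of TFIIIB at the genes of RNA polymerase III, such as those for transfer RNAs, 5S ribosomal RNA and the U6 small nuclear RNA. A protein that sits on a short stretch of DNA gives a characteristic ChIP-seq pattern. Reads on the plus strand begin to the left of the bound stretch and reads on the minus strand begin to its right, because each read starts at one end of a sheared fragment. The distance between the 2 groups of ends reflects the length of the recovered fragments. Sites are named by their position on mouse build mm8, the build of the deposited alignments, and were not assigned to genes.

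In their top tile the 300 sites held from 100 to 327 distinct reads in B2, with a median of 128, and from 30 to 221 in B6, with a median of 52.5. Scaled to the distinct nuclear reads of each library (RPM), the median was 8.06 in B2 and 18.4 in B6. The lower limits of the rule corresponded to 69.2 times the mean tile in B2 and 116 times in B6. The windows reaching 300 bp either side of the 300 summits took up 0.410% of all distinct reads in B2 and 0.895% in B6. Across the sites, top-tile RPM in the libraries had a Pearson r of 0.811 and a Spearman rho of 0.724 (n = 300 sites). These points share 2 libraries and a lower limit in each, so the correlation is a description only.

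**Figure D1:**
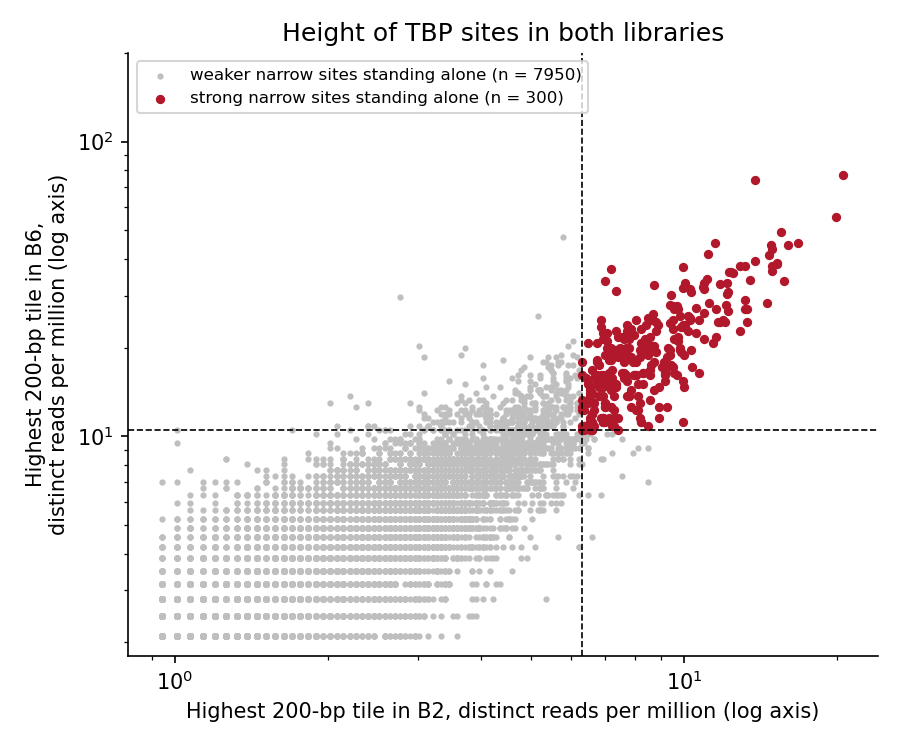
RPM in the highest tile of each site in B2 (x axis) and B6 (y axis), both on log axes. The 300 sites (red) lie above the dashed limits of 6.29 RPM in B2 and 10.5 RPM in B6, and the 7950 weaker narrow sites standing alone are grey.

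The highest site by the mean of both libraries was chr11:75326801-75327400. Its top tile held 327 distinct reads in B2 and 221 in B6, or 20.6 and 77.4 RPM. A tile offers 400 positions for distinct reads, so 81.8% of the possible positions were taken in B2 and 55.3% in B6, and distinct reads understate its height. With duplicates kept, its window held 1533 reads in B2 and 429 in B6. The site chr11:108827601-108828200 came next with 219 and 212 distinct reads, and after it chr11:106828601-106829200 with 316 and 158. The libraries disagreed on the order of this pair: the latter site was well above the former in B2 and below it in B6.

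The others of the 10 highest lay on 6 chromosomes, and their top tiles ranged from 183 to 266 distinct reads in B2 and from 118 to 141 in B6. Their positions were chr16:13350601-13351000 (246 and 141), chr7:79339601-79340200 (266 and 129), chr9:123774201-123774600 (183 and 129), chr10:127861401-127861800 (255 and 127), chr11:62418801-62419200 (236 and 127), chr3:122285001-122285200 (237 and 123) and chr10:96046201-96046800 (234 and 118). The site on chromosome 3 fitted into 1 tile. Over all 300 sites, 22 filled 1 tile, 151 filled 2 and 127 filled 3. More than 50% of the positions of the top tile were taken at 24 sites in B2 and at 2 in B6.

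The lower edge of the set is a cut through a continuous distribution. The sites closest to the limits inside them were chr15:5063401-5064000 (100 and 30 distinct reads), chr15:83422801-83423200 (101 and 30) and chr4:107377601-107377800 (104 and 30). Just outside were chr1:93243401-93244000 (99 and 48), chr11:78117601-78118000 (99 and 40) and chr11:100288801-100289000 (99 and 40), which met every other condition. The position of the tile grid mattered as well. With the tiles moved by 100 bp, 298 sites met the rule, but only 186 of the original 300 overlapped one of them. The membership of a single site thus depends on the grid.

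Relative to library size, every one of the 300 sites was higher in B6 than in B2 by top-tile RPM. For most of them the rule fixed this, because its lower limits were 6.29 RPM in B2 and 10.5 RPM in B6. A site under 10.5 RPM in B2 could only be higher in B6, and the upper quartile of the set in B2 was 9.82 RPM. The ratio of B6 to B2 ranged from 1.13 to 5.38 with a median of 2.22, against a median of 2.03 over all 12872 sites. In the windows of 300 bp either side of the summit the median ratio was 2.08 for distinct reads and 1.64 with duplicates kept. Whether the limited number of positions plays a part was not tested. With duplicates kept, chr14:39187401-39188000 had the lowest value, 0.296. The top-tile ratio was highest at chr11:108827601-108828200 (5.38), chr5:146565201-146565600 (5.17, from 114 and 106 distinct reads) and chr6:134532601-134533200 (4.81, from 111 and 96). It was lowest at chr7:120633801-120634000 (1.13, from 158 and 32), chr4:133740201-133740600 (1.28, from 135 and 31) and chr7:97275001-97275400 (1.29, from 142 and 33). On the 16 sites of chromosome 8 the median ratio was 2.29, against 2.20 on the other chromosomes.

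Read ends around the summits formed 1 sharp peak per strand. In the mean profile of B2, plus-strand ends peaked in the bin from 60 to 51 bp left of the summit at 5.46 ends per site and 10 bp, and minus-strand ends peaked 110 bp further right at 5.42. In B6 the peaks reached 3.02 and 3.06 at the same bins. Beyond 500 bp from the summit the level was 0.148 per strand in B2 and 0.0374 in B6. Part of this symmetry is built in, since summits were located after every end had been moved 60 bp inward.

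**Figure D2:**
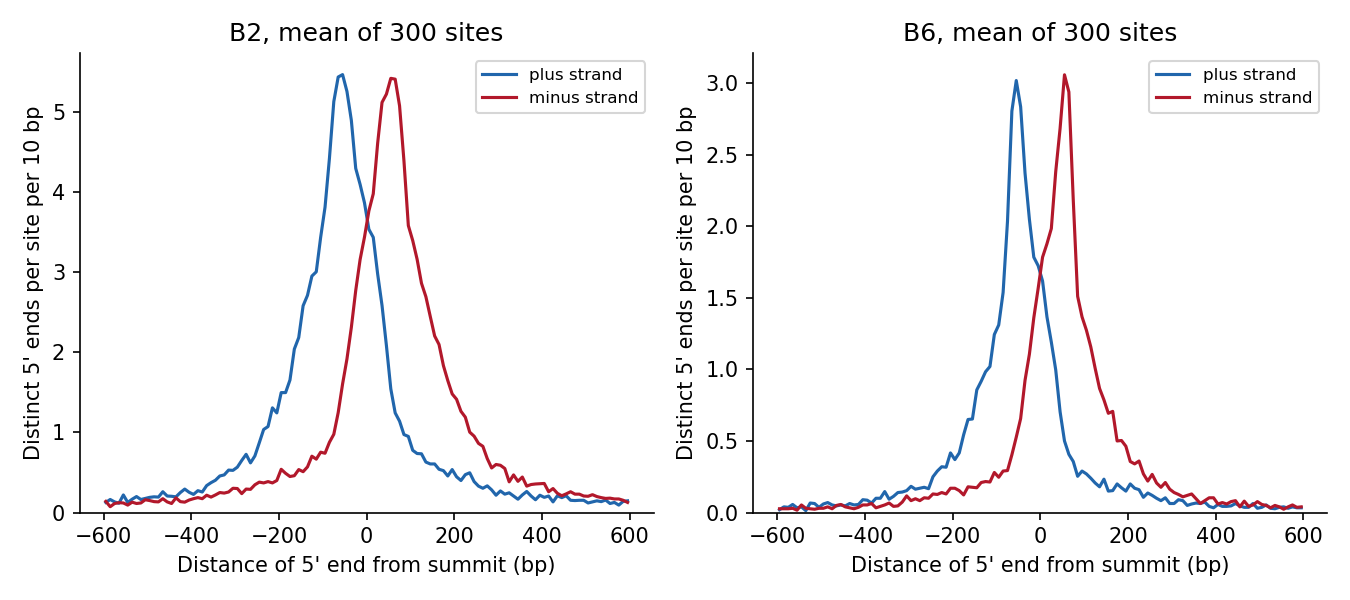
Mean number of distinct 5′ ends per site and 10-bp bin (y axis) against the distance from the summit in bp (x axis), for the plus strand (blue) and minus strand (red) of B2 and B6. The strands peak on opposite sides of the summit with 110 bp between the highest bins in both libraries.

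Per site, the strand distance was taken as the median position of minus-strand ends less that of plus-strand ends within 300 bp of the summit. Its median over the 300 sites came to 108.5 bp for B2 and 98.0 bp for B6, a mean of 103 ± 7.42 bp (SD, n = 2 libraries). It was above 0 at all 300 sites in B2 and at 298 in B6. Between 60 and 130 bp lay 259 sites in B2 and 258 in B6. The middle 50% of the moved ends spanned a median of 117 bp in B2 and 96.1 bp in B6, so ends lay closer together in B6, the library with the lower upper limit of the gel cut. Whether the gel cut plays a part was not tested. The width of a site was ordered alike in both libraries (rho 0.704 over 300 sites), and its strand distance less so (rho 0.299).

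The libraries placed their summits close to each other within a site. Summits were sought only inside the site, at most 600 bp wide, so the width rule limits this distance. The median distance between the B2 and B6 summits was 15 bp. Summits lay within 10 bp of each other at 114 sites (38%), within 50 bp at 253 (84.3%) and within 100 bp at 296 (98.7%). The farthest pair was 298 bp apart. Among the 217 equally strong narrow sites that had another site within 5 kb the median was 13 bp, and among the 7950 weaker narrow sites standing alone it was 35 bp, with far fewer reads per site. At the highest site the summits were 8 bp apart, and at chr11:106828601-106829200 they were 11 bp apart.

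A few sites departed from this shape. The strand distance was at most the read length in both libraries at 4 of the 300 sites (1.33%). It was so at 479 of all 12872 (3.72%), and at 5 of the 344 other sites whose top tile met the same limits (1.45%). At chr11:108827601-108828200 it measured 31.0 bp (B2) and 16.0 bp (B6), at chr14:39187401-39188000 it was 31.0 and 16.5 bp, and at chr9:35054801-35055200 it was 34.5 and -2.50 bp. These 3 sites also had many reads with 2 alignments, which were listed apart in the files and did not enter the rule. They held 80, 226 and 232 distinct such reads in B2 and 144, 174 and 141 in B6. The fourth, chr7:45263601-45264200, held none in either library, and its strand distance measured 15 bp (B2) and -58.0 bp (B6). The summits of the libraries stood 74 bp apart there, within a site of 3 tiles. Without the 4 sites the medians of the set were 109 bp (B2) and 98.0 bp (B6).

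At the other end, the longest strand distances were 180.5 and 150.5 bp at chr11:116541201-116541600 in B2 and B6, 153 and 173 bp at chr12:29222001-29222400, and 138 and 159 bp at chr6:39349801-39350400. All 3 stood near the lower limits of the rule, with 103 to 110 distinct reads in B2 and 31 to 39 in B6. Among the 10 highest sites, chr7:79339601-79340200 had 151 and 101.5 bp, the highest site of all had 146 and 111.5 bp, and chr10:96046201-96046800 had 108 and 105.5 bp. Long distances in B2 were thus found at tall sites too.

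**Figure D3:**
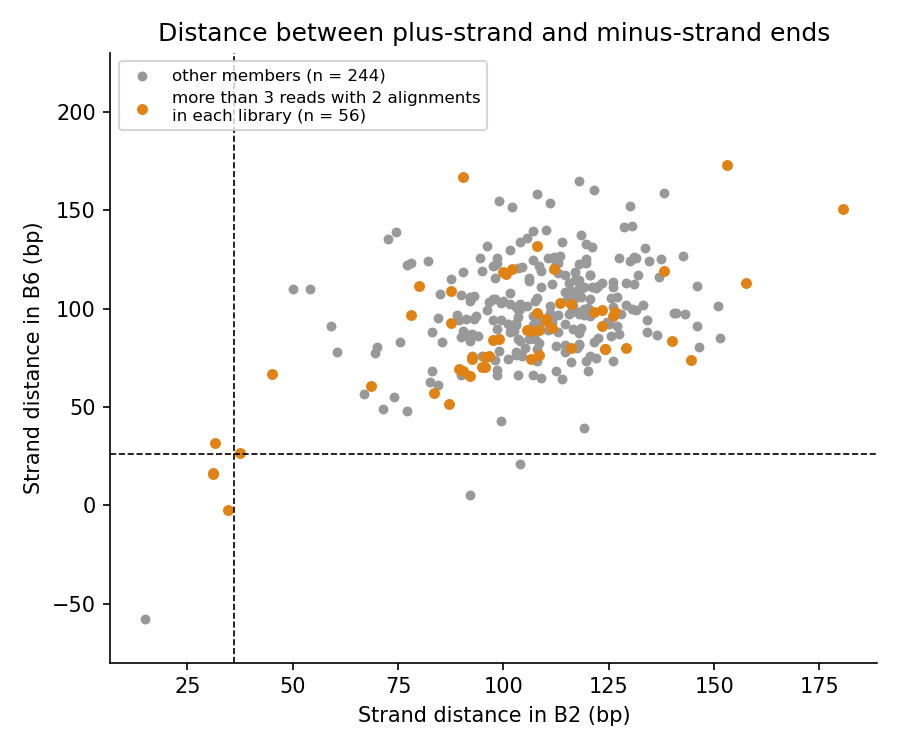
Strand distance in bp at each of the 300 sites in B2 (x axis) and B6 (y axis), with dashed lines at the read lengths of 36 and 26 bases. Orange points are the 56 sites with more than 3 distinct reads with 2 alignments in each library; most sites form 1 cloud around 108.5 and 98.0 bp, and 4 lie at or under both lines.

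Repeated reads at the same position were counted separately from the rule, which used each position once. The median site had 1.35 reads per distinct read in B2 and 1.16 in B6, where whole libraries had 1.06 and 1.09. These ratios rose with height: Spearman's rho between top-tile RPM and reads per distinct read was 0.706 in B2 and 0.603 in B6 over the 300 sites. More than 2 reads per distinct read were found at 33 sites in B2 and at 4 in B6. Over all 12872 sites the upper quartile was 1.15 in B2 and 1.12 in B6. The trait was not particular to the set. Medians were 1.49 and 1.20 at the 217 strong narrow sites with a neighbour, and 1.49 and 1.21 at the 127 strong sites of 4 or more tiles. Repeated reads can be copies of 1 molecule or separate molecules with the same end, and these files do not part them.

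The site with the most repeated reads was chr14:39187401-39188000. Its window held 4817 reads on 208 distinct positions in B2, with 260 at 1 position, but 263 reads on 109 positions in B6. At chr11:108827601-108828200 the window held 2824 reads on 454 positions in B2 and 1666 on 452 in B6, and at chr9:35054801-35055200 it held 1648 on 298 and 334 on 167. These are the same 3 sites that combined short strand distances with many reads with 2 alignments. Across the 300 sites, reads per distinct read in B2 and B6 had a Spearman rho of 0.693.

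Reads that also aligned to 1 other place in the genome lay near many of these sites, often in small numbers. Reads with 2 alignments were present within 300 bp of the summit at 204 of the 300 sites in at least 1 library, and absent at 96 (32.0%). By library, they were present at 104 sites in B2 (34.7%) and at 195 in B6 (65.0%), which has the shorter reads. The median site held 1 distinct read of this kind over both libraries. Over all 12872 sites, reads with 2 alignments were absent from both libraries at 61.1%. More than 3 distinct reads of this kind in each library were found at 56 sites (18.7%), against 28.1% of the strong narrow sites with a neighbour, 37.8% of the 127 strong sites of 4 or more tiles and 4.33% of the weaker narrow sites standing alone. Taller sites collect more reads of either kind, and these shares were not matched for height. Such a read appears in the files at either place, and which of them was bound cannot be read from these counts.

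The 56 sites were set beside the other 244 as a description. Their median strand distances were 104 bp (B2) and 86.5 bp (B6), against 110 and 100 bp, and their median top tile reached 9.28 and 19.8 RPM, against 7.80 and 17.9. They had a median of 1.63 reads per distinct read in B2 and 1.25 in B6, against 1.32 and 1.15. After chr14:39187401-39188000 and chr9:35054801-35055200, such reads summed over both libraries were most numerous at chr9:123774201-123774600, with 156 in B2 and 81 in B6. Its strand distances were 78.0 and 97.0 bp, above both read lengths.

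Plus and minus reads were balanced at most of the 300 sites. The plus share within 300 bp of the summit had a median of 50.3% in B2 (from 36.2% to 68.0%) and of 49.9% in B6 (from 29.7% to 70.2%). The strand did not enter the rule, so balance was tested at every site with a two-sided exact binomial test on the distinct reads of both libraries, with Benjamini-Hochberg adjustment over all 12872 sites. At an adjusted p of 0.05, 11 of the 300 sites (3.67%) had unequal strands, where percent called over all sites was 0.917%. Of the 11, 8 had more plus reads (0.482% over all sites) and 3 had more minus reads (0.435%). A site with more reads passes more easily, and these sites held more reads than most. Among the 344 other strong sites, 50 passed (14.5%).

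The share was on the same side in both libraries at each of the 11 sites and at 171 of the other 289 (59.2%). The summed reads of both libraries chose the 11, so this agreement is partly fixed by the choice. At chr11:101420601-101421000 it was 68.0% in B2 (157 plus and 74 minus reads, Wilson 95% interval 61.7 to 73.6) and 67.4% in B6 (58 and 28, interval 57.0 to 76.4), with a binomial adjusted p of 2.1e-07. At chr11:83087401-83087800 it was 65.5% (58.5 to 71.8) and 70.2% (59.8 to 79.0). At chr10:30500401-30500800 it was 66.2% (59.7 to 72.1) and 63.0% (52.1 to 72.7). The intervals of these 3 sites stayed above 50% in both libraries. At chr12:59958001-59958400, another of the 8 and named after its values were seen, the share was 66.1% (60.03 to 71.7) in B2 and 60.5% in B6, where the interval of 49.9 to 70.1 crossed 50%. Intervals cover counting error alone, because amplified reads lacking molecular barcodes may share a molecule.

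Minus reads prevailed at chr11:115840401-115840800, where the plus share was 36.2% in B2 (29.99 to 43.0) and 30.4% in B6 (21.3 to 41.2). It was 39.5% (32.9 to 46.5) and 30.9% (21.2 to 42.6) at chr4:118792401-118792800, and 39.8% (33.1 to 46.9) and 36.5% (26.4 to 47.9) at chr2:18504801-18505000. All 11 sites with unequal strands held at least 1 read with 2 alignments, against 193 of the other 289 (66.8%). More than 3 such reads in each library were found at 3 of the 11 (27.3%), against 18.7% of the 300, and neither share was matched for height. When reads with 1 or 2 alignments were counted together, 7 of the 11 sites still passed, all of them with more plus reads. The 3 sites with more minus reads and 1 of the 8 with more plus reads, chr7:28059201-28059600, no longer passed; this last site is named after its values were seen. Binomial adjusted p became 0.0703 at chr2:18504801-18505000 and 0.187 at chr4:118792401-118792800. The site chr11:115840401-115840800 gained 67 plus and 24 minus reads in this way, its plus share over both libraries moved from 34.6% to 44.0%, and its binomial adjusted p from 0.000122 to 0.519. The site chr11:101420601-101421000 gained 2 plus and 6 minus reads and kept a plus share of 66.8%. Of all sites counted this way, 0.73% passed.

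The count of unequal sites rested on the deeper library. In B2 alone 6 of the 300 sites passed (0.357% over all sites), and each leaned the same way in B6. In B6 alone the binomial test with adjustment called 0 of the 300 (0.0855% over all sites). At an unadjusted p of 0.05 there were 41 sites in B6 (13.7%, against 4.66% over all sites) and 35 in B2 (11.7%, against 6.84%). With the libraries summed, 46 sites (15.3%) had an unadjusted p of at most 0.05, against 8.13% over all sites. Among the 344 other strong sites these unadjusted shares were higher, at 18.9% in B6, 25.9% in B2 and 33.1% summed. Other settings of the summed test called 8 sites at an adjusted p of 0.01 (0.521% over all sites), 21 in a window of 200 bp (1.08%), 14 in a window of 500 bp (1.08%) and 41 with all reads kept (2.5%). Over the 300 sites the plus shares of the libraries had a Pearson r of 0.494 and a Spearman rho of 0.371, as a description.

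**Figure D4:**
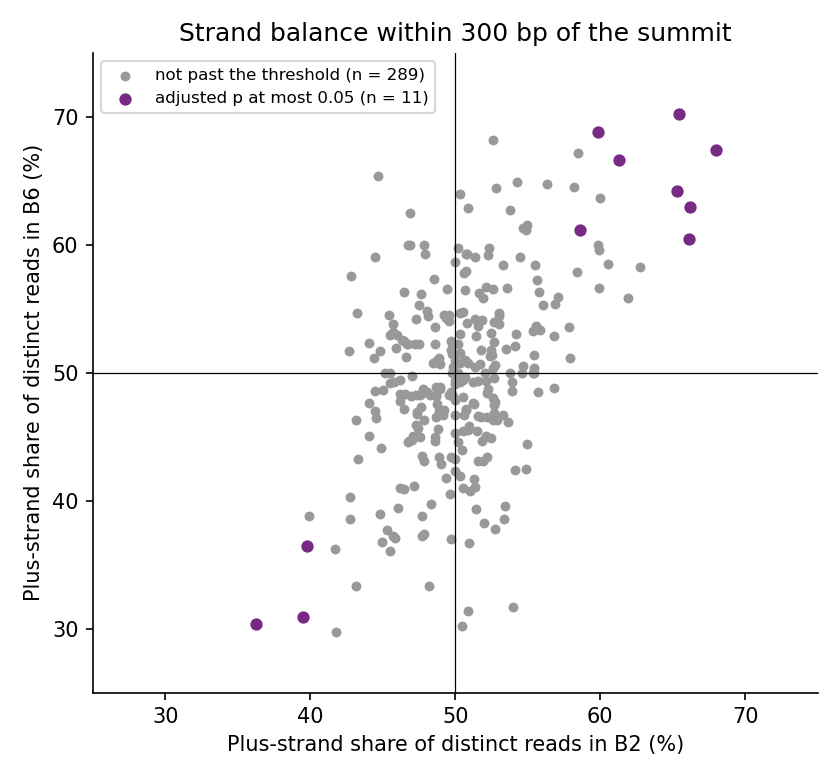
Plus-strand share of distinct reads in percent at each of the 300 sites in B2 (x axis) and B6 (y axis), within 300 bp of the summit. The 11 sites past the threshold (purple) lie in the upper right or lower left, on the same side of 50% in both libraries.

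Reads around the sites were moderately denser than the chromosome average. From 1 to 5 kb on both sides of the summit the median density was 1.39 times the mean of the chromosome in B2 and 1.40 times in B6. It lay above the mean at 257 sites (85.7%) in B2 and at 223 (74.3%) in B6, close to the 84.7% and 75.5% of all sites. From 2 kb outward the mean of both libraries' medians was 1.24. Strong narrow sites with a neighbour had medians of 3.13 and 4.19, a region that holds the neighbour itself. Relative to its own flanks, the median site of the set was 33.8-fold denser in B2 and 69.8-fold in B6.

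By the mean of both libraries, the flanks were richest at chr10:21683801-21684200, at 3.32 times the chromosome mean in B2 and 4.75 times in B6. Next were chr1:174336601-174337200 (3.19 and 4.51) and chr10:80333001-80333400 (3.50 and 3.96). They were poorest at chr5:31728801-31729200 (0.429 and 0.0930), chr14:39187401-39188000 (0.348 and 0.331) and chr12:84521601-84522200 (0.484 and 0.212). The B6 values of these 3 sites rest on only 1, 3 and 2 flank reads. Flank density was only weakly ordered by height: over the 300 sites, Spearman's rho with mean RPM was 0.147. The poorest flanks therefore included sites with ordinary tops, such as chr12:84521601-84522200 with 116 and 55 distinct reads.

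Closer in, reads were counted from 300 to 1000 bp on either side of the summit. Of 152 sites with at least 20 reads there in B2, at least 10 in B6 and no tie, 119 (78.3%) had the denser side in common, against 88.9% over all sites and 83.1% of the weaker narrow sites standing alone under the same conditions. At 33 of these (21.7%) at least 75% of the B2 reads lay on 1 side, and at 32 of the 33 that side was also the denser in B6. That share was 42.6% over all sites, 43.2% of the strong narrow sites with a neighbour, 41.6% of the strong sites of 4 or more tiles and 26.9% of the weaker narrow sites standing alone. The sites of the set thus had the lowest value of these classes in both respects, a difference that was not tested. The rule keeps other sites out of this range for the set, as for the weaker narrow sites standing alone. In the remaining classes another site or more tiles can lie there, so part of the contrast with them is built in. In every class a site's own tiles can reach past 300 bp where the summit stands off centre. The set spanned a mean of 2.35 tiles and the weaker narrow sites standing alone 1.55, and the classes were not matched for width. The sides are left and right on the assembly and were not oriented by the direction of transcription.

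The rule required more than 5 kb to the next site. The median distance was 29600 bp, close to the 32000 bp of the 7950 weaker narrow sites standing alone, which met the same limit. Of the 300 sites, 44 (14.7%) had another site within 10 kb. Within 100 kb another site was found for 268 of the 300 (89.3%). The most remote were chr3:28996401-28996800, with 1093800 bp to the nearest other site, chr7:58267001-58267400 with 828800 bp, and chr14:39187401-39188000 with 615400 bp. The first had 121 distinct reads in B2 and 45 in B6 and strand distances of 123.5 and 99.5 bp, and the second had 209 and 77 reads and 119.5 and 73.5 bp. Both thus had the usual offset between strands, unlike chr14:39187401-39188000. The second was also among the 11 with unequal strands, with a plus share of 58.6% (53.0 to 63.9) in B2 and 61.2% (51.5 to 70.01) in B6. Its binomial adjusted p was 0.0253.

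Distances between members of the set are given as a description. The rule allowed no other member within 5 kb, and the spacing was not compared with that of an equal number of other sites. The median distance between neighbours in the set was 1521500 bp, 4 of 300 had another within 20 kb, and 115 (38.3%) had another within 1000 kb. By chromosome, the density was highest on chromosome 11, with 28 sites or 24.9 per 100 mapped Mb, followed by chromosome 5 with 26 (19.5) and chromosome 10 with 21 (18.0). It was lowest on chromosome 12 with 7 (6.87) and chromosome 3 with 11 (7.85). Chromosome 11 also had the most sites of any kind per Mb, 11.2. Of the sites of each chromosome, the share that belonged to the set ran from 1.22% on chromosome 19 (6 of 490) to 3.30% on chromosome 1 (23 of 696), and chromosome 11 stood at 2.21%, near the 2.33% of all chromosomes.

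**Figure D5:**
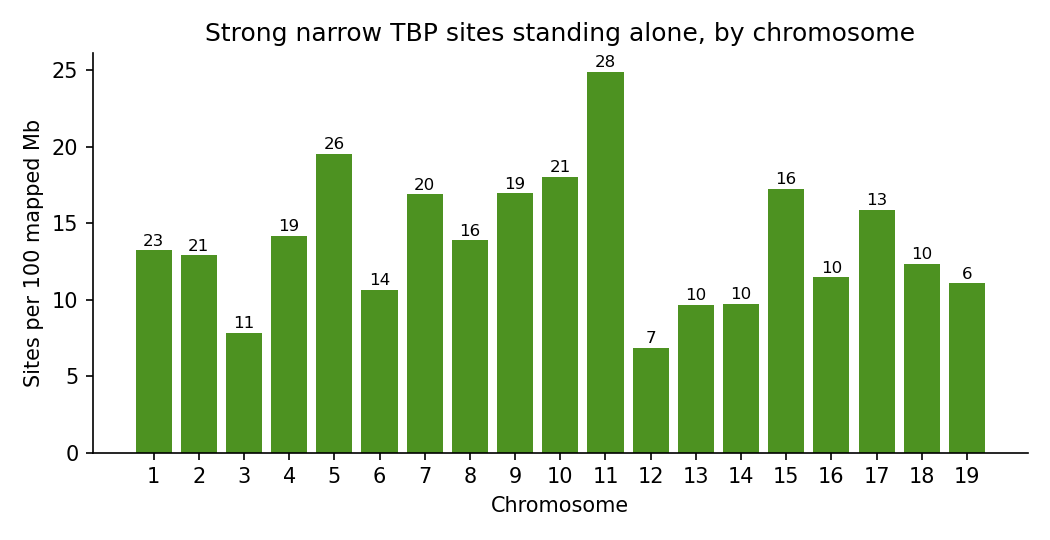
Number of strong narrow sites standing alone per 100 mapped Mb (y axis) for chromosomes 1 to 19 (x axis), with the number of sites above each bar. Chromosome 11 reaches 24.9 and chromosome 12 stands lowest at 6.87.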

How the data were processed

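The authors deposited 1 list per library of signed alignment positions on mm8 (a unit other than counts; minus-strand reads are negative), per the file headers and the values. Reads were aligned with Bowtie (version not given in the sources used here) with -e 70, -k 2, -m 2, -n 2 and -l 36 (B2) or 26 (B6), per the file headers, so reads with more than 2 alignments are not listed. Reads with 1 alignment were reduced to 1 per position and strand. Each 5 prime end was moved 60 bp inward and counted in tiles of 200 bp. Summits were the highest point after Gaussian smoothing (SD 20 bp) of both libraries, each scaled to its distinct reads. Mapped length was counted in 1-kb bins holding a read.

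The members and measures were chosen with earlier results of these data known. Sites were named by fixed ranks (height, nearness to the limits, library ratio, strand distance, strand balance, repeated reads, isolation, reads with 2 alignments and flank density). The 10 sites on chromosome 18 were counted but not named. The limit of the strand distance at the read length and that of 3 reads with 2 alignments were set after the values were seen. Medians over sites have no test, because sites share 2 libraries. The gene and promoter tables at hand are on GRCm38.p6; no coordinate was converted, so genes and sequences of these sites are not given. Python 3.11.15, NumPy 2.4.6, SciPy 1.17.1, pandas 2.3.3 and matplotlib 3.10.9 were used. Alternatives covered duplicates, shifts, tile grid, limits, windows, smoothing and each library left out.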

Additional observations from a re-analysis of the deposited data

Results flagged for a closer look

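Signal appeared in reads that the rule did not use. More than 3 distinct reads with 2 alignments lay within 300 bp of the summit in both libraries at 56 of the 300 sites (18.7%), against 5.46% over all 12872 sites. The share was higher among the 344 other strong sites, at 31.7%, so it was not particular to the set. The limit of 3 was set after the values were seen, and the shares were not matched for height. On chromosome X, which lay outside the rule, 5 sites met the same conditions, or 4.56 per 100 mapped Mb against 13.9 on chromosomes 1 to 19. They were 5 of the 259 sites of any kind on X (1.93%), against 2.33% on chromosomes 1 to 19. Their top tiles held 109 to 175 distinct reads in B2 and 31 to 79 in B6. The highest of them, chrX:70523401-70523800, held 175 and 79. The limits on reads were the same there, and they were not adapted to the number of X chromosomes per cell. Chromosome Y had 0 such sites among 12 sites of any kind.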

How the results depend on the processing

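The number of sites was 300. It lay between 256 and 382 with shifts of 40 or 80 bp, tiles moved by 100 bp, limits of 20 and 8 reads per tile, 2 or 10 kb of free distance, up to 4 tiles, a gap of exactly 5 kb counted as alone, or reads with 1 or 2 alignments. It moved to 495 with all reads kept, 187 with limits of 10 and 4 reads per tile, 727 with lower and 149 with higher limits on the top tile, and 173 with at most 2 tiles. With the limits of 1 library alone it ranged from 212 (B2) to 586 (B6). For changed limits the stricter or looser rule itself makes the difference; for duplicates the cause was not tested. The number of sites with unequal strands was 11, and 21 with a window of 200 bp, 41 with all reads kept, and 0 to 6 with 1 library left out, where fewer reads entered; it was 8 to 14 at an adjusted p of 0.01, with a window of 500 bp and with reads with 1 or 2 alignments. The median strand distance became 95.4 bp in a window of 200 bp, the summit distance 19 bp with a smoothing SD of 10 bp, and the flank density 1.24 from 2 kb outward; the cause was not tested. Reads per distinct read moved by less than the spread between the libraries with windows of 200 or 500 bp and without the 4 short-distance sites. With 1 library left out this was fixed in advance, because the main value is the mean of both libraries. The exact 5 kb gap, the joint count of reads with 1 or 2 alignments for strands and the medians without the 4 short-distance sites were added after seeing the data.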
